A study of Mus musculus with 8 samples.

Results

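The miR-23/27/24 clusters are a pair of paralogous microRNA (miRNA) gene clusters, one holding miR-23a, miR-27a and miR-24-2 and the other miR-23b, miR-27b and miR-24-1. Their guide strands were taken by exact array name (mmu-miR-23a, mmu-miR-23b, mmu-miR-27a, mmu-miR-27b and mmu-miR-24), 5 of the 611 mouse miRNAs on the array. All 5 were measured on 8 one-colour arrays of lung RNA from C57BL/6 dams. The 4 Printex 90 samples came from dams that received this carbon black nanoparticle in nanopure water by instillation into the trachea, 0.067 mg on each of gestational days 7, 10, 15 and 18, or 0.268 mg in all. The 4 vehicle control samples came from dams given nanopure water, and lungs of all dams were taken 26 to 27 days after exposure, when the pups were weaned. Neither the dams' age nor whether every array stands for its own animal is given in the labels, so the p-values cover the spread among these 8 samples, which may be technical.

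Each cluster is transcribed as a single precursor RNA that is cut into 3 hairpins, and each hairpin gives a guide strand and a usually much rarer passenger strand, marked with an asterisk in the array's naming. The miR-23 and miR-27 families are abundant in endothelial cells and vessel-rich tissue such as lung and promote vessel sprouting by repressing the inhibitors Sprouty2 and Sema6A. miR-27 also represses the adipogenic and anti-inflammatory nuclear receptor PPARG, and miR-24 restrains endothelial cells through GATA2 and PAK4. Because the guide miR-24 is made by both clusters, its signal cannot be assigned to either of them.

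In RefSeq (GRCm38.p6) the hairpins Mir23a, Mir27a and Mir24-2 lie on the plus strand within chr8:84208518-84208921, with no other RefSeq gene spanning them. Mir23b, Mir27b and Mir24-1 lie on the plus strand within chr13:63300484-63301275, inside the span of the gene Aopep. The miRNA gene Mir3074-1 also spans Mir24-1. A mature RefSeq sequence was matched for 4 of the 5 members, and miR-23b is given by name only. The guides are shown 5′ to 3′ because paralogs of a family share their seed, the bases 2 to 8 that pair with targets, here in capitals.
miR-23a: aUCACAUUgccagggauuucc
miR-27a: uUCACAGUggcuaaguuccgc
miR-27b: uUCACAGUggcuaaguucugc
miR-24: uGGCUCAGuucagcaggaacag
miR-27a and miR-27b had the same seed and differed at 1 base, C19U, counted from the 5′ end of miR-27a. The passenger strands of miR-24 are what tells the clusters apart, since the guide is the same. They shared their first 16 bases, and with both aligned from the 5′ end the capitals mark the 5 positions that differ and base 23 of miR-24-1*, which has no counterpart. Both strands end in the same letters, which are in capitals because they lie 1 position apart.
miR-24-1*: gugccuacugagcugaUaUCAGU
miR-24-2*: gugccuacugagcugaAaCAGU
The hairpins show the same guide, in capitals, in different surroundings.
Mir24-2: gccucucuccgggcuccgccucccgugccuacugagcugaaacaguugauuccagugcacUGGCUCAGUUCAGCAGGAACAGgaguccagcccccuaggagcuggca
Mir24-1: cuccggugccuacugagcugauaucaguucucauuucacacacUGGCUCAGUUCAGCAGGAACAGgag
How far a probe for one paralog also bound the other was not tested.

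Signals below are relative to each array's 75th percentile, and means are given ± SD with n = 4 arrays per group. Each array carried 13000 spots, 248 to 283 mouse miRNAs were detected per array, and 268 detected on at least 4 arrays were tested. The log2 of the 75th percentile was 9.35 ± 0.14 in Printex 90 samples and 9.42 ± 0.16 in controls (exact permutation p = 0.571, 2-sided). Lung marker miRNAs, miR-126-3p of endothelium and miR-200a of epithelium, were detected on all 8 arrays. The 8 arrays were on 1 slide with 1 scan, with Printex 90 samples in its row 2 and controls in its row 1, so the effects of group and row cannot be told apart.

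All 5 members were bright. Of their 765 kept spots, 0 failed to be well above background, and the 2 probes of each member were printed 10 times each. Within an array, spots of a probe varied with a median coefficient of variation of 2.08% for miR-24 to 3.48% for miR-23b. The arrays of a group varied more than the spots for most members: by 9.04% in Printex 90 samples and 3.68% in controls for miR-23a, and by 9.11% and 3.47% for miR-27a. For miR-27b the arrays varied by 2.61% in Printex 90 samples and 2.80% in controls, less than its spots (median 3.29%). These are unlike measures, because an array's value sums 2 probe means over up to 10 spots each and so averages out single-spot variation. Whether the arrays varied beyond the noise of the spots cannot be read from them. Over the 8 arrays the highest signal was 1.27 times the lowest for miR-27a, 1.24 times for miR-24, 1.20 times for miR-23a, 1.12 times for miR-23b and 1.09 times for miR-27b, where the median of the 240 miRNAs detected on all arrays was 1.31.

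The comparison of Printex 90 with vehicle asks whether these vascular miRNAs differed in the dams' lungs at weaning after repeated particle instillation. All 5 guides were slightly lower in Printex 90 samples, although miR-23b turned higher under 3 scaling or background alternatives and miR-27a with the median over spots, and 0 of 5 passed the test, as did 0 of 268 miRNAs in all (0.00% called at an adjusted p of 0.05 with limma, 5.60% at an unadjusted p of 0.05). The same direction was common: 65.7% of all tested miRNAs were lower and 31.7% higher, the rest being at the floor in both groups. The median log2 difference was -0.09 over the 5 members and -0.05 over all tested miRNAs. In bulk lung, fewer cells of a type and less RNA per cell cannot be told apart.

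With this scaling the guides made only by the chromosome 8 cluster had the largest differences of the 5, both within the spread between arrays. The order changed with quantile normalization, with the median over spots and without some single arrays. miR-23a measured 13.9, 15.8, 16.7 and 14.1 on Printex 90 replicates 1 to 4, against 16.8, 15.5, 16.7 and 16.1 on control replicates 1 to 4. Printex 90 replicates 1 and 4 lay below all controls, and the other Printex 90 arrays lay among them. The means were 15.2 ± 1.37 and 16.3 ± 0.600, a log2 difference of -0.11 (SE 0.067, 95% interval -0.27 to 0.05, limma adjusted p = 0.706).

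miR-27a measured 6.27, 7.54, 7.67 and 6.90 on Printex 90 replicates 1 to 4, against 7.67, 7.34, 7.99 and 7.61 on control replicates 1 to 4. Replicates 1 and 4 of the Printex 90 group were again below every control. The means were 7.09 ± 0.646 and 7.65 ± 0.266, a log2 difference of -0.11 (SE 0.068, 95% interval -0.27 to 0.05, limma adjusted p = 0.706). As a share of the control level the interval ran from -17.3% to 3.41%.

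miR-24, the guide shared by both clusters, measured 9.33, 11.5, 10.8 and 10.3 on Printex 90 replicates 1 to 4, against 10.9, 11.0, 10.9 and 11.6 on control replicates 1 to 4. Of the Printex 90 arrays 3 lay below all controls, while replicate 2 was the second highest array of all. The log2 difference was -0.09 (SE 0.064, 95% interval -0.24 to 0.06, limma adjusted p = 0.724). Without Printex 90 replicate 1 it was -0.03.

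With this scaling the chromosome 13 guides differed by less. miR-23b measured 5.83, 6.26, 6.53 and 6.04 on Printex 90 replicates 1 to 4, against 6.37, 6.36, 5.92 and 6.53 on control replicates 1 to 4. The groups overlapped over nearly their whole range, and the log2 difference was -0.03 (SE 0.046, 95% interval -0.14 to 0.08, limma adjusted p = 0.806). Its sign was positive under 3 scaling or background alternatives, with a largest value of 0.02.

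miR-27b, which varied least of the 5 between arrays, measured 2.55, 2.62, 2.69 and 2.55 on Printex 90 replicates 1 to 4, against 2.78, 2.74, 2.61 and 2.76 on control replicates 1 to 4. Control replicates 1, 2 and 4 lay above every Printex 90 array, and control replicate 3 lay among them. The means were 2.60 ± 0.0681 and 2.72 ± 0.0763, a log2 difference of -0.06 (SE 0.031, 95% interval -0.14 to 0.01). Its unadjusted limma p of 0.0791 was the lowest of the 5 members and its limma adjusted p was 0.706 (exact permutation p = 0.0857, 2-sided, unadjusted). For 0 of 5 members were the groups apart, where 1.49% of all tested miRNAs had groups that did not overlap.

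**Figure D1:**
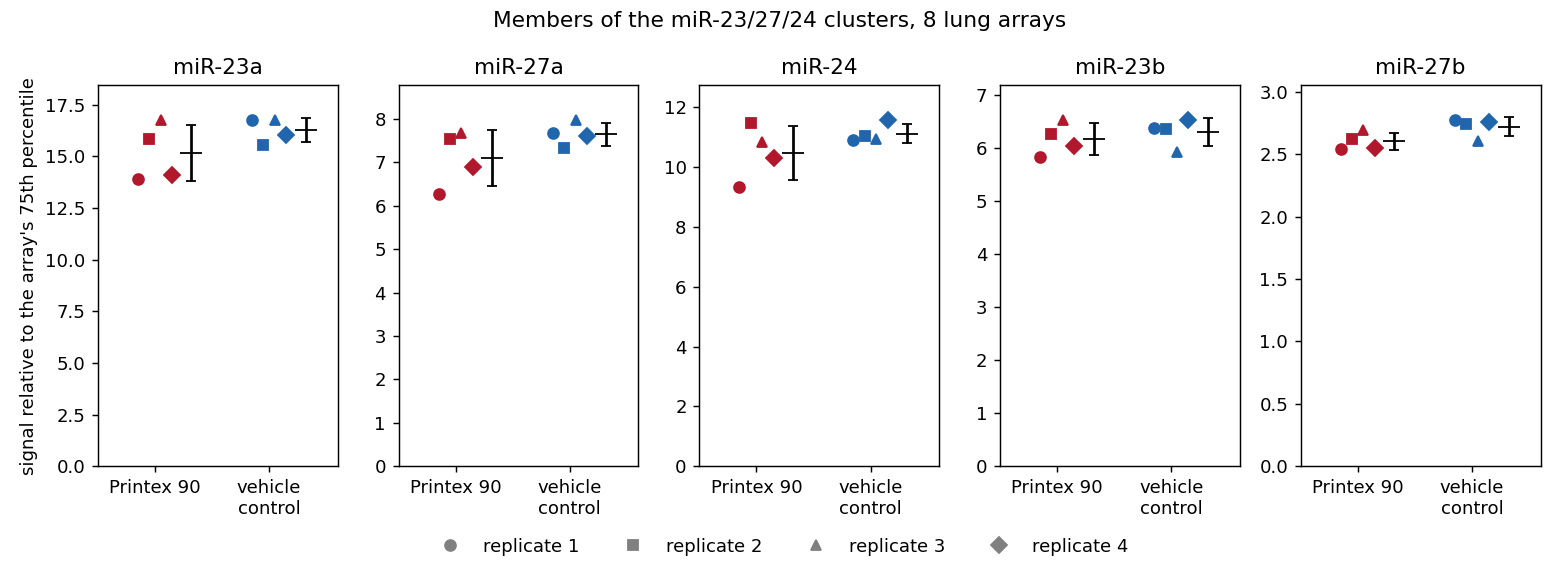
Signal of the 5 guides relative to each array's 75th percentile (vertical axis, from 0) on the 4 Printex 90 arrays (red) and the 4 vehicle control arrays (blue), with symbols for replicates and black bars for mean ± SD. Printex 90 replicate 1, the red circle, is the lowest of all 8 arrays in every panel, and the groups overlap in all 5.

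Printex 90 replicate 1 had the lowest signal of all 8 arrays for 5 of 5 members, among them 13.9 for miR-23a and 9.33 for miR-24. It was also the lowest array for 29.2% of the 240 miRNAs detected on all arrays, Printex 90 replicate 4 for 22.9% and control replicate 4 for 21.7%. Without Printex 90 replicate 1 the log2 differences were -0.07 for miR-23a, -0.06 for miR-27a and -0.05 for miR-27b. On that array the summed signal of the 3 striated muscle markers (miR-1, miR-133a and miR-133b) was the highest of all arrays at 3.00, where the other Printex 90 arrays had 0.263 to 0.407 and the controls 0.331 to 1.85. The summed signal of the endothelial strands miR-126-3p and miR-126-5p was the lowest there at 34.4, with 36.8 to 42.3 on the other Printex 90 arrays and 37.3 to 43.0 in controls. The sum of the smooth muscle markers miR-143 and miR-145 was also highest there, at 3.27. The sums for epithelial (8.16), leukocyte (7.54), erythroid (22.5) and hepatocyte (0.354) markers on that array lay within the range of the other arrays. The part of these cell types in the members' signals was not tested.

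With this scaling the probes of each guide did not differ in sign. Of the 10 probes of the 5 members 10 were lower in Printex 90 samples, with log2 differences of -0.16 to -0.01. Under the same scaling 65.7% of all tested miRNAs were lower. Single probes were not followed through the alternatives, under 3 of which miR-23b as a whole was higher. The probes of a miRNA share their target and are not replicates. Over the 8 arrays the 2 probes of miR-24 correlated with r = 0.98, those of miR-23a with r = 0.96, of miR-27a with r = 0.84, of miR-23b with r = 0.76 and of miR-27b with r = 0.55, the member whose arrays differed least.

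Of the passenger strands 4 were on the array under their old names. miR-27a* and miR-27b* were detected on 0 arrays of either group. miR-24-2*, from the chromosome 8 hairpin, measured 0.192, 0.229, 0.230 and 0.191 on Printex 90 replicates 1 to 4, against 0.250, 0.236, 0.232 and 0.228 on control replicates 1 to 4. Printex 90 replicates 1 and 4 were the low arrays, as for miR-23a and miR-27a. Its log2 difference of -0.17 (SE 0.076, 95% interval -0.35 to 0.01) was larger in size than that of any guide with this scaling, but it was -0.01 with quantile normalization, -0.02 in the authors' deposited table and -0.03 with normexp background correction, smaller there than that of miR-23a or miR-27a. It did not pass the test (limma adjusted p = 0.706; exact permutation p = 0.0857, 2-sided, unadjusted).

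miR-24-1*, from the chromosome 13 hairpin, measured 0.0541, 0.0624, 0.0625 and 0.0634 on Printex 90 replicates 1 to 4, against 0.0627, 0.0642, 0.0556 and 0.0679 on control replicates 1 to 4. Printex 90 replicate 1 and control replicate 3 were its low arrays. It was detected through 1 of its 2 probes, close to the floor of 0.0388. Its spots varied with a median coefficient of variation of 13.6% over both probes, 7.22% for the detected probe and 26.9% for the other. The log2 difference was -0.05 (SE 0.077, limma adjusted p = 0.826). Taken by locus, the 3 strands made only on chromosome 8 had log2 differences of -0.11, -0.11 and -0.17 and the 3 made only on chromosome 13 had -0.03, -0.06 and -0.05. With quantile normalization the values were -0.07, -0.05 and -0.01 for chromosome 8 and 0.01, -0.05 and -0.06 for chromosome 13, so the loci were no longer apart in order. The intervals overlap, and the difference between the loci was not tested.

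**Figure D2:**
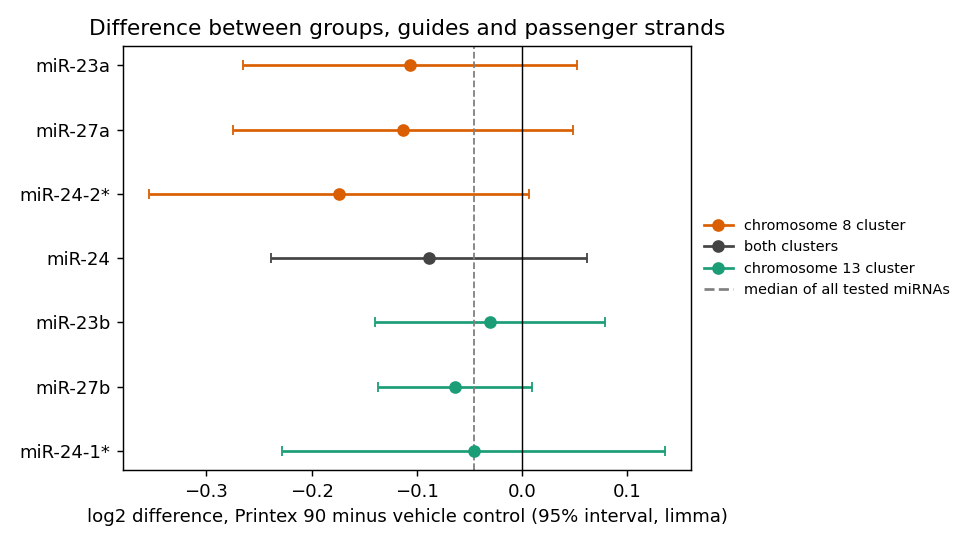
Log2 difference (horizontal axis, Printex 90 minus vehicle control) of the 5 guides and the 2 detected passenger strands, with 95% intervals from limma; colours give the cluster. Every interval includes 0 (solid line), and all 7 include -0.05, the median of all tested miRNAs (dashed line).

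Within an array the log2 ratio of one paralog to the other removes the scaling, and its level has no meaning because probes differ in brightness. The ratio of miR-23a to miR-23b was 1.25, 1.34, 1.36 and 1.22 on Printex 90 replicates 1 to 4, against 1.40, 1.29, 1.50 and 1.30 on control replicates 1 to 4. The means were 1.29 ± 0.07 and 1.37 ± 0.10, a difference of -0.08, and the groups overlapped. With quantile normalization the difference was -0.07, and in the authors' deposited table it was -0.11. The ratio of miR-27a to miR-27b was 1.44 ± 0.10 in Printex 90 samples and 1.49 ± 0.08 in controls, a difference of -0.05 that was smaller than the spread between arrays. Without Printex 90 replicate 1 it was -0.002, with quantile normalization 0.003 and in the authors' deposited table -0.04. Control replicate 3 had the highest ratio for both pairs, 1.50 and 1.61.

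Over the arrays, guides made from the same precursor had high correlations, of which that on chromosome 8 passed the test after adjustment and that on chromosome 13 did not. miR-23a and miR-27a had r = 0.93 and Spearman's rho = 0.98 (exact permutation p = 7.44e-05 for r, adjusted 0.00156 over 21 pairs of strands, and adjusted 0.00833 for rho, n = 8 arrays). Without the 2 arrays farthest from the median of miR-23a, Printex 90 replicates 1 and 4, r was 0.82. miR-23b and miR-27b had r = 0.85 and rho = 0.86 (exact permutation p = 0.0132 for r, adjusted 0.0519, and adjusted 0.112 for rho), and r was 0.79 without Printex 90 replicate 1 and control replicate 3. All strands share the scaling of their array, which these p-values do not take into account. The median r over the 28680 pairs of miRNAs detected on all arrays was 0.13. Of those pairs 1.88% had an r at or above that of miR-23a with miR-27a, and 5.98% at or above that of miR-23b with miR-27b. Ranked by r, miR-27a had rank 9 for miR-23a, and miR-23a had rank 6 for miR-27a. In the other cluster miR-27b had rank 3 for miR-23b, and miR-23b had rank 7 for miR-27b. So high an r was therefore not particular to guides of a shared precursor.

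The correlations of paralogs were lower, a difference that was not tested. r was 0.58 for miR-23a with miR-23b and 0.60 for miR-27a with miR-27b (exact permutation adjusted p = 0.164 and 0.143 over the 21 pairs). Without the 2 arrays farthest for miR-23a and miR-27a, Printex 90 replicates 1 and 4, it was -0.20 and -0.48. Leaving out the most extreme arrays narrows the range and can by itself lower r. Whether these relations rest on those arrays therefore cannot be read from the fall. Over the 6 pairs of strands from the same locus the median r was 0.84, and over the 9 pairs from different loci it was 0.58. After removing the group means these medians were 0.86 and 0.50, with quantile normalization 0.58 and 0.12, and without scaling between arrays 0.97 and 0.87. In the authors' deposited table they were 0.53 and -0.18. Without the 2 arrays farthest from the median of the first-named strand, the 2 sets of pairs overlapped. Same-locus r then ran from -0.04 for miR-27a with miR-24-2* (0.84 with all arrays) to 0.82 for miR-23a with miR-27a. Different-locus r ran from -0.73 for miR-27a with miR-24-1* to 0.86 for miR-23b with miR-27a. The pairs also reuse the same strands, so they are not independent. With all arrays, exceptions were miR-27b with miR-24-1*, from the same locus (r = 0.66), and miR-27b with miR-24-2*, from different loci (r = 0.83). The second pair also passed the test for r (exact permutation p = 0.00474, adjusted 0.0497 over the 21 pairs) but not for rho (0.67, adjusted 0.252). Its r was 0.12 with quantile normalization, -0.37 in the authors' deposited table and 0.68 without Printex 90 replicate 1 and control replicate 1. Of the 21 pairs, these were the only 2 past an adjusted p of 0.05 for r, the other being miR-23a with miR-27a. With quantile normalization the passenger strands miR-24-1* and miR-24-2* had r = 0.80, against 0.35 with the main scaling, and both are dim. The 6 correlations of miR-24, made at both loci, ran from 0.66 with miR-27b to 0.86 with miR-27a. With quantile normalization they ran from -0.22 with miR-24-2* to 0.58 with miR-27b. Without Printex 90 replicates 1 and 4 r was -0.60 for miR-24 with miR-23a and -0.30 with miR-27a, with the same limit on what the fall can show.

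**Figure D3:**
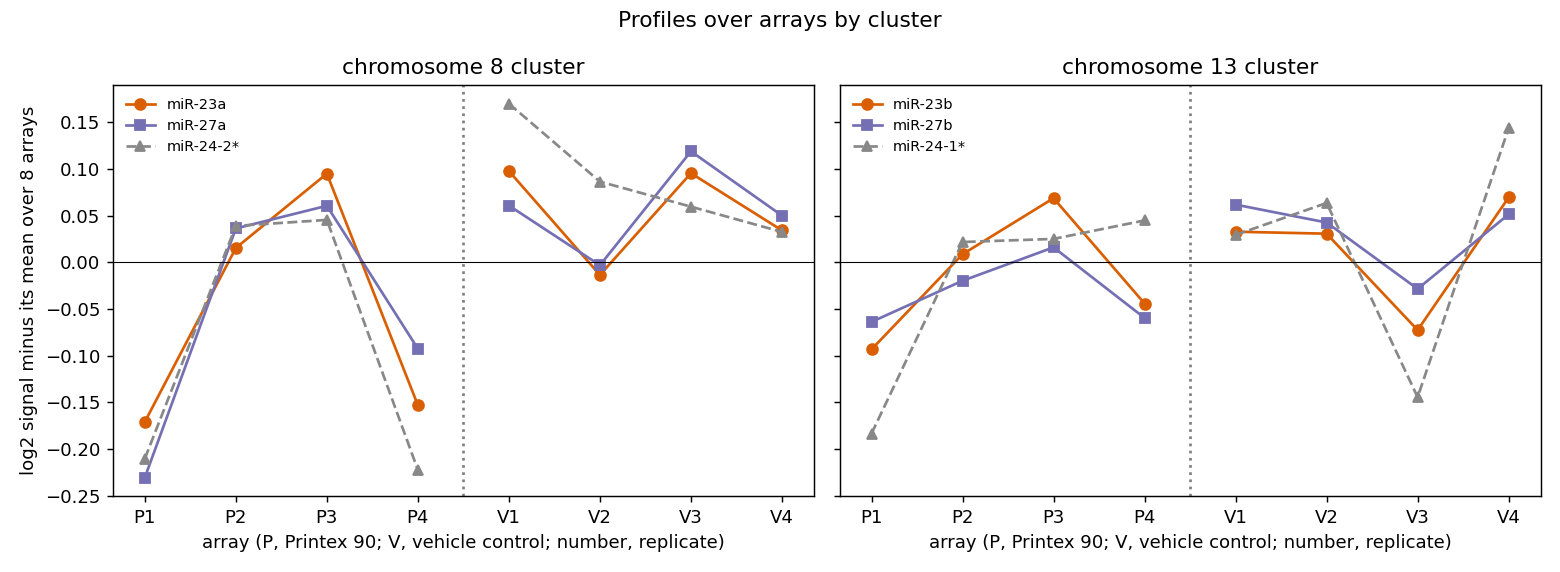
Log2 signal minus its mean over the 8 arrays (vertical axis) for the strands made only on chromosome 8 (left) and only on chromosome 13 (right), on Printex 90 (P1 to P4) and vehicle control (V1 to V4) arrays; lines only link the points of a strand. All 3 strands of chromosome 8 are lowest on P1 and P4. All 3 strands of chromosome 13 are low on P1 and V3, and miR-23b and miR-27b are low on P4 as well.

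**Figure D4:**
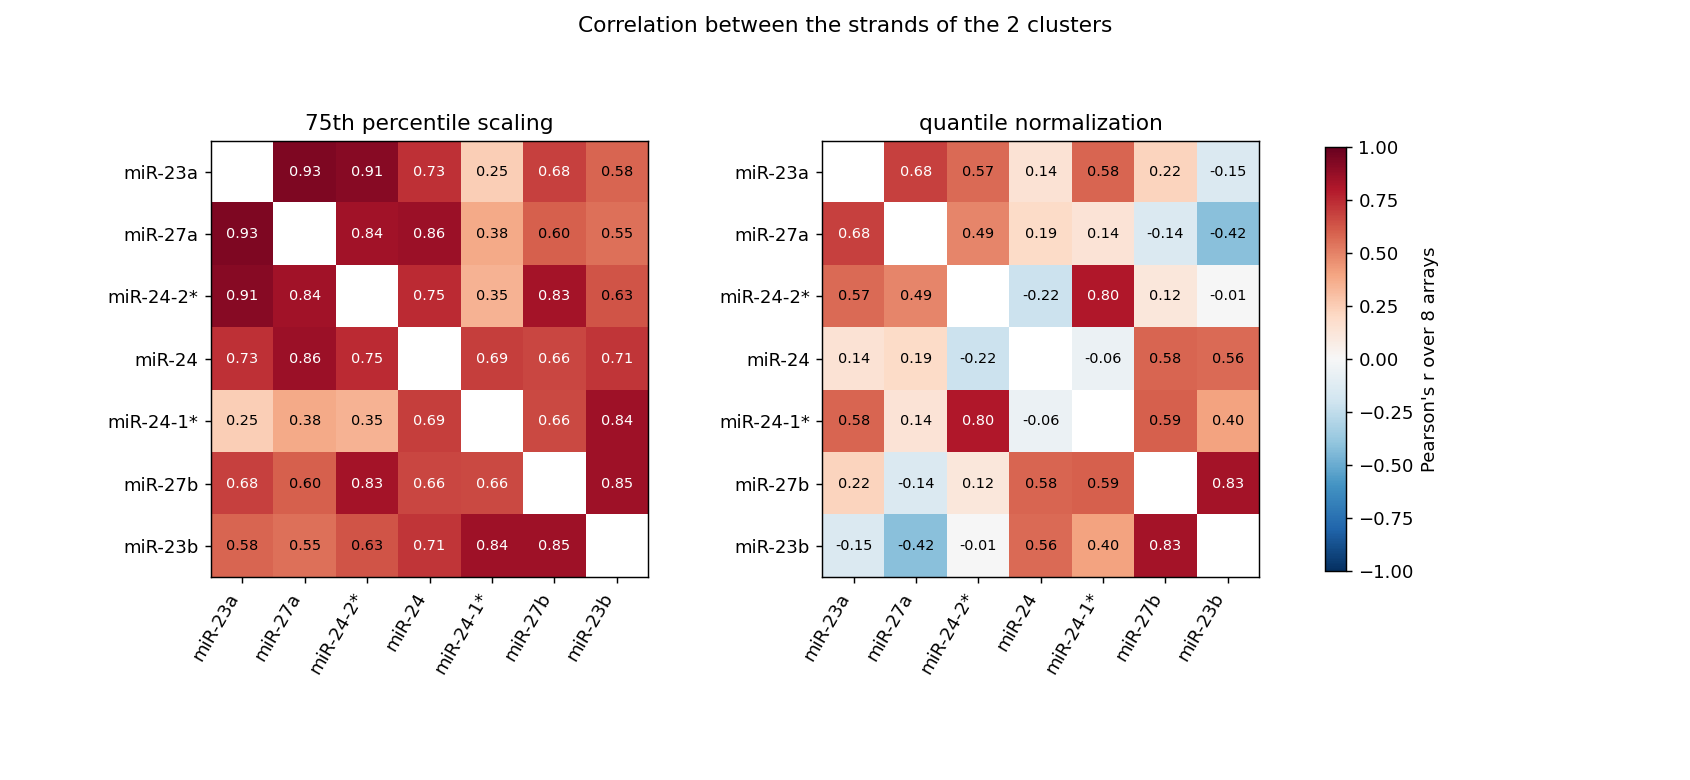
Pearson's r over the 8 arrays between the 5 guides and 2 passenger strands, with the 75th percentile scaling (left) and with quantile normalization (right); red is positive and blue negative. miR-23a with miR-27a (0.93 and 0.68) and miR-23b with miR-27b (0.85 and 0.83) are high under both.

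The miRNAs whose profile over the 8 arrays was most like each member were taken by the highest r among the 240 detected on all arrays. For miR-23a these were miR-185 (0.97), miR-26b (0.96) and miR-26a (0.95), and for miR-27a they were miR-30c (0.96), miR-30a* (0.95) and miR-185 (0.94). For miR-23b they were miR-181d (0.92), miR-30b* (0.88) and its cluster partner miR-27b (0.85), and for miR-27b miR-30b* (0.96), miR-181b (0.93) and miR-199b* (0.89). For miR-24 they were miR-30b (0.93), miR-497 (0.92) and miR-19b (0.91). Most of this likeness was lower with quantile normalization, where r was 0.83 for miR-23b with miR-27b and between 0.13 and 0.62 for the other pairs (0.13 for miR-23b with miR-181d, 0.16 for miR-23a with miR-26a). The log2 differences of these 12 other miRNAs between the groups did not pass the test (limma adjusted p = 0.706 or above), and ran from -0.15 for miR-185 to -0.05 for miR-181d.

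Among the 5 members, the chromosome 8 guides had the highest correlations with the endothelial guide miR-126-3p. Its r over the 8 arrays was 0.93 with miR-23a and 0.94 with miR-27a, 0.76 with miR-24, 0.55 with miR-23b and 0.57 with miR-27b. After removing the group means r was 0.92, 0.92, 0.70, 0.50 and 0.40. Spearman's rho, in the same order, was 0.86, 0.93, 0.43, 0.45 and 0.43, so by rank miR-24 was no closer than the chromosome 13 guides. With quantile normalization no r could be computed, because miR-126-3p held the same rank, and so the same value, on all 8 arrays. The pair was chosen after the profiles were seen, the arrays share their scaling, and no test was made. miR-23a and miR-27a each had a higher r with the miRNAs named above as most like them. How common so high an r with miR-126-3p was among all miRNAs was not counted, and r was not recomputed without single arrays. miR-126-3p, which keeps vessels intact by repressing the VEGF pathway inhibitors Spred1 and Pik3r2, measured 37.9 ± 3.53 in Printex 90 samples and 40.6 ± 2.62 in controls, a log2 difference of -0.10 (SE 0.079, limma adjusted p = 0.754).

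Of 14 other miRNAs linked to vessels or angiogenesis, 13 were tested, 5 were higher and 8 lower, and 0 passed the test. Their median log2 difference was -0.03, against -0.05 over all tested miRNAs. The smallest p among them belonged to miR-126-5p, the partner strand of miR-126-3p, at 0.574 ± 0.0910 in Printex 90 samples and 0.656 ± 0.0442 in controls (log2 difference -0.20, limma adjusted p = 0.706). Next was miR-222, which restrains endothelial migration through the KIT receptor, at -0.08 (limma adjusted p = 0.724). miR-21, of injured and inflamed tissue, had the smallest p of all tested miRNAs (log2 difference 0.49, limma adjusted p = 0.203).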

How the data were processed

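Lung RNA of 4 Printex 90 and 4 vehicle control samples was profiled on Agilent one-colour (Cy3) miRNA arrays. Per the labels' protocols, a miRvana kit gave total RNA enriched in small RNA, and labelling used the maker's miRNA kit. Per the file headers, the intensity of each spot was extracted with Feature Extraction 10.7.3.1 (grid 021828), which subtracted background within an array, set flags and did not normalize between arrays. The authors' deposited table of log2 values, for which no method is given in these sources, served as an alternative only.

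Control spots and outlier-flagged spots were left out (2.25% to 2.76% of spots per array), and 0 spots were saturated. The mean over a probe's spots was taken, and a miRNA's probes were added up. A miRNA counted as detected where at least 50% of the spots of 1 probe were well above background. Arrays were divided by their 75th percentile (580.8 to 804.7 intensity units) over the 240 mouse miRNAs detected on all 8, floored at the 5th percentile of detected signals (0.0388) and put on a log2 scale. Those detected on 4 or more arrays (268) were fitted with limma 3.58.1 in R 4.3.3 (lmFit and eBayes, 2-sided, Benjamini-Hochberg over all 268), and the step was tested on simulated data. Sequences are RefSeq's (GRCm38.p6); the files name no build. The named miRNAs were the members, their passenger strands, other array miRNAs with a member's RefSeq seed (0 beyond the members), the 3 most like each member, the 2 smallest p of the vascular list and the smallest p of all. Members and lists were chosen with earlier results of these data known. Alternatives covered the scaling, background (normexp on the median spot signal, offset 50), filter, probe summary, flagged spots, floor, spread model, array weights, single arrays left out and a block for the replicate number. The number of arrays limits the precision.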

Additional observations from a re-analysis of the deposited data

Results flagged for a closer look

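In 14 groups of 4 arrays (5 guides and 2 passenger strands, each in both treatments), the distance of the outermost array from its neighbour, as a share of the group's range, was set against Dixon's 95% limit. It was exceeded in 1 group, where chance, at about 1 in 20 groups, gives 0.7. miR-24-1* on Printex 90 replicate 1 was low, at a log2 relative signal of -4.21 against -4.00 on the next lowest Printex 90 array, a gap of 0.899 of the range. The nearest to the limit among the guides were miR-24 on control replicate 4 (gap 0.818) and miR-27b on control replicate 3 (gap 0.788).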

How the results depend on the processing

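The 5 guides and 2 passenger strands were each recomputed under 25 alternatives and none passed its threshold under any of them. miR-23a, miR-24, miR-27b and miR-24-2* kept their direction in all 25, with limma adjusted p of 0.421 to 0.955 for miR-23a, but not their size: apart from single arrays left out, miR-23a ran from -0.18 to -0.05, miR-24 from -0.16 to -0.04, miR-27b from -0.27 (median over spots) to -0.01 (percentile over all mouse miRNAs) and miR-24-2* from -0.24 to -0.01 (quantile normalization). miR-23b was 0.0222 with the percentile over all mouse miRNAs, 0.00821 with quantile normalization and 0.00573 with normexp. miR-27a was 0.19 with the median over spots, which falls between a bright and a dim probe; with that summary the differences of the log2 ratios were 0.045 for miR-23a to miR-23b and 0.46 for miR-27a to miR-27b, and the median over the members was -0.17. That median was -0.16 without scaling between arrays, -0.04 with the percentile over all mouse miRNAs, -0.05 with quantile normalization and normexp and -0.05 without Printex 90 replicate 1. miR-24-1* was 0.00632 with the percentile over all mouse miRNAs, 0.00558 in the authors' deposited table, 0.0578 with normexp and 0.00753 without Printex 90 replicate 1, and lay at the floor on all arrays when the floor was doubled. Leaving out 1 array gave log2 differences of -0.16 to -0.07 for miR-23a, -0.06 to -0.004 for miR-23b, -0.15 to -0.06 for miR-27a, -0.08 to -0.05 for miR-27b, -0.13 to -0.03 for miR-24 and -0.10 to 0.00753 for miR-24-1*. The count of miRNAs past an adjusted p of 0.05 was 3 with normexp and 0 to 3 when 1 array was left out (3 without Printex 90 replicate 3), and no guide was among them. The median of all tested miRNAs ran from -0.12 without scaling to 0.05 with normexp, and the share lower from 83.2% to 29.9%; apart from what is named here, the cause was not tested. With the replicate number as a block the count stayed 0 and the guides ran from -0.11 to -0.03 as before. The replicate number is also the array's column on the slide, 1 to 4 in both groups. Same-numbered arrays had correlations of deviations of -0.14, -0.60, -0.38 and 0.75. Not every array was most like its own number, and whether the numbers pair the arrays was not tested.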
